A study of Mus musculus with 9 samples.

Results

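A set of 10 genes that encode the enzymes of prostaglandin and leukotriene metabolism was followed in monocytes/macrophages of mice after ischemic stroke: Ptgs1, Ptgs2, Ptges, Hpgd, Hpgds, Alox5, Alox5ap, Alox15, Lta4h and Ltc4s. The members were taken by gene symbol, and 10 of 10 were found among the 53801 genes that were counted. Cells gated as CD11c-Ly6G-CD11b+CD45high were sorted for bulk RNA-seq from male C57BL/6J mice at 9 weeks of age. The stroke groups had the distal branch of the left middle cerebral artery permanently closed (dMCAO), together with the left common carotid artery, and their blood (stroke blood) and ipsilesional hemisphere (stroke brain) were sampled 5 days later. Sham blood came from sham-operated mice, and its sampling day is not given in the sources used here. Each group had 3 libraries, with 1 mouse per blood library and a pool of 5 mice per brain library. Sham-operated brain was not analysed here. Blood cells were separated on Ficoll, whereas brain cells were enzymatically dissociated and separated on Percoll, so tissue, dissociation and pooling cannot be told apart in any comparison of brain with blood.

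These enzymes act on arachidonic acid that phospholipases release from membranes. The cyclooxygenases COX-1 (Ptgs1) and COX-2 (Ptgs2) turn it into prostaglandin H2, from which prostaglandin E synthase (Ptges) makes PGE2 and hematopoietic prostaglandin D synthase (Hpgds) makes PGD2, and 15-hydroxyprostaglandin dehydrogenase (Hpgd) inactivates prostaglandins. In the other branch, 5-lipoxygenase (Alox5) works with its activating protein FLAP (Alox5ap) to form leukotriene A4, which leukotriene A4 hydrolase (Lta4h) converts to the neutrophil attractant LTB4 and leukotriene C4 synthase (Ltc4s) to the cysteinyl leukotrienes. Alox15, a second lipoxygenase of macrophages and eosinophils, takes part in forming lipoxins and other lipid mediators linked to the resolution of inflammation.

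The cyclooxygenase genes lie on different chromosomes, Ptgs1 at chr2:36230426-36252272 and Ptgs2 at chr1:150100031-150108227 (GRCm38, both on the plus strand). Their upstream stretches are shown because the pair catalyse the same reaction and both were upregulated in the brain. Each line is the 250 bases that end just before the annotated start, 5′ to 3′ on the plus strand (RefSeq, GRCm38.p6), with matches to the searched motifs in capitals.

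Ptgs1 (chr2:36230176-36230425): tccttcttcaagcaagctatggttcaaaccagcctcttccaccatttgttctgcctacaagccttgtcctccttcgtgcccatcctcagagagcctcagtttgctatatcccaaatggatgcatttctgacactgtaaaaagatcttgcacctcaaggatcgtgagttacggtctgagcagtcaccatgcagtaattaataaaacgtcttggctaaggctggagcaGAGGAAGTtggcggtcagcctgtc
Ptgs2 (chr1:150099781-150100030): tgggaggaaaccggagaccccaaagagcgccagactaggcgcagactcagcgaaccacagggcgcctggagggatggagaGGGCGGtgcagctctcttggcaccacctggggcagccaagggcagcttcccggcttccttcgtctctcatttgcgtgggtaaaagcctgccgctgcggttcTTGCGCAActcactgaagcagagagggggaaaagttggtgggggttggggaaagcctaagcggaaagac

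In Ptgs1, the capitals mark a PU.1 motif (GAGGAAGT) from position -24 to -17, counted back from the base before the start. In Ptgs2, they mark a GC box (GGGCGG) from position -170 to -165 and a C/EBP motif (TTGCGCAA) from position -69 to -62. The Hpgds stretch also held the PU.1 letters, from position -49 to -42, and GC boxes were found for Ptges, Hpgd and Alox5. Across 32851 RefSeq promoters of the same length, 2.44% held the PU.1 letters, 32.7% the GC box and 0.164% the C/EBP letters on either strand. The letters of a TATA box (TATAA), an E-box (CACGTG), a cAMP response element (TGACGTCA) and AP-1 (TGANTCA) were also searched on both strands. No match was found in the 8 members with a listed promoter. Of the 32851 promoters, 22.8%, 6.02%, 1.55% and 6.75% held these letters, in that order. Bases past the start were not searched. None of the matches overlapped another motif searched. They describe the letters only.

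All 9 libraries had 18475118 to 22623578 counts. The monocyte/macrophage markers were present in every library, Csf1r at 41465 counts or more and Ly6g, a gene that the gate excludes, at 14 counts or fewer. The summed level of the 8 monocyte/macrophage markers was nevertheless lower in the brain, at 42760 to 49170 normalized CPM (counts per 1000000, scaled for library composition). It was 104500 to 111700 in stroke blood and 91430 to 128100 in sham blood, and most of it was Lyz2 in every group. Of the 8, 2 were downregulated against stroke blood, Lyz2 and Ly6c2, whereas Cd68 lay above blood in every brain library. Itgax, which encodes the excluded CD11c, was upregulated in the brain libraries (1786 to 2643 counts, against 204 to 403 in stroke blood). Brain libraries also held higher microglial transcripts: all 8 microglia markers were upregulated against stroke blood, and their summed level was 926.7 to 2924 CPM against 25.5 to 40.3. Among blood libraries, sham blood 1 was low in red cell markers, at 1248 CPM against 31060 and 33800 in the other sham libraries. Its platelet markers were at 21.7 CPM against 517.7 and 778.7. Sham blood 3 was highest in neutrophil markers, at 3369 CPM against 1039 and 1220 in the other sham libraries.

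Of the 10 enzyme genes, 5 differed between stroke brain and stroke blood. Ptgs2, Hpgds, Ptgs1 and Ltc4s were upregulated in the brain and Alox5ap was downregulated, where a gene was called at a log2 fold change beyond 1 in either direction and an adjusted p below 0.05 in edgeR's quasi-likelihood test over all genes. The remaining members, Ptges, Hpgd, Alox5, Alox15 and Lta4h, were not called. Thus 4 of 10 members were called higher and 1 lower, against 13.1% and 7.86% of the 13189 genes tested. The median log2 fold change of the 10 members was 1.54 and that of all genes tested 0.06. The 3 brain libraries lay wholly above or below the 3 stroke blood libraries for 7 of 10 members, and for 48.2% of all genes. In these bulk samples, a change in the share of a cell type and a change in RNA per cell cannot be told apart.

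**Figure D1:**
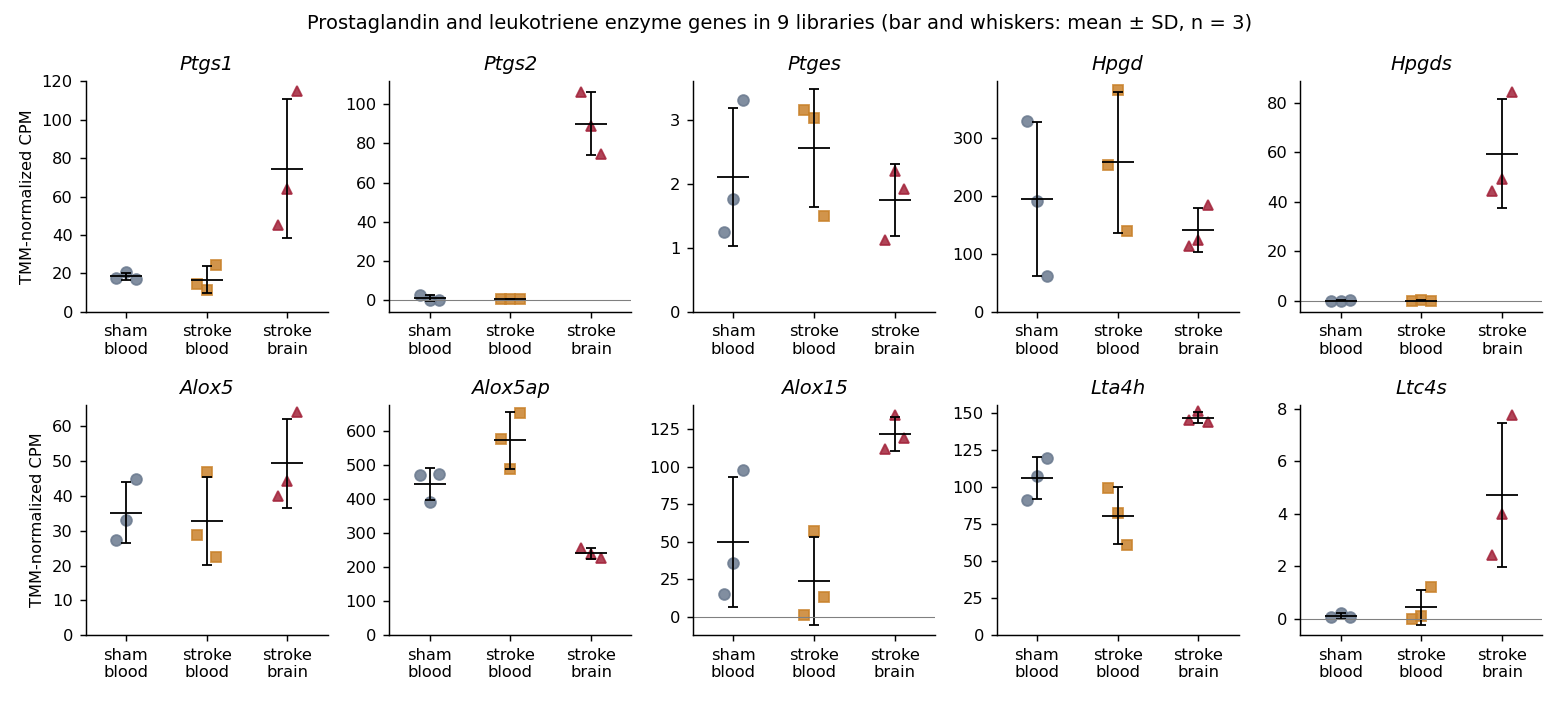
TMM-normalized CPM (vertical axes, linear) of the 10 enzyme genes in each library of sham blood, stroke blood and stroke brain, with the group mean and SD (n = 3). Ptgs2 and Hpgds stayed at or below 2.83 and 0.521 CPM in blood and reached at least 74.4 and 44.5 CPM in every brain library, and Alox5ap was lower in the brain than in either blood group.

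Ptgs2, the inducible cyclooxygenase, was close to the detection limit in blood and abundant in the brain. It had 57, 3 and 4 counts in the sham blood libraries, 12, 15 and 15 in stroke blood, and 2186, 2140 and 1707 in stroke brain. The brain libraries did not overlap with blood, and they differed among themselves by no more than 1.43-fold. Mean levels were 0.740 ± 0.145 CPM in stroke blood and 89.9 ± 16.1 CPM in the brain (SD, n = 3), a log2 fold change of 6.96 (SE 0.27, adjusted p = 9.55e-07, edgeR). Against sham blood it was 6.38 (SE 0.89, adjusted p = 0.00381, edgeR). Most of the sham counts came from sham blood 1, the library low in red cell and platelet markers. Without that library, the log2 fold change against sham blood was 8.94 (adjusted p = 9.37e-05, edgeR).

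Ptgs1, the cyclooxygenase that many cells make constitutively, was measured in blood and rose in the brain. Counts were 354, 441 and 311 in sham blood, 287, 236 and 409 in stroke blood, and 924, 1538 and 2638 in stroke brain. The lowest brain library, at 45.0 CPM, was above the highest blood library, at 24.5 CPM, but the brain libraries spanned a 2.55-fold range. The log2 fold change against stroke blood was 2.19 (SE 0.38, adjusted p = 0.0027, edgeR) and against sham blood 2.01 (SE 0.33, adjusted p = 0.0067, edgeR). A gene model without known function, Gm43621, shares exon bases with Ptgs1 on the opposite strand, and whether the counting used strand is not given in the sources used here.

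Per kilobase of exon, Ptgs2 was the minor cyclooxygenase transcript in every blood library. Its level there was 0.577% to 13.7% of that of Ptgs1, with the highest share in sham blood 1. These shares rest on 3 to 57 Ptgs2 counts per library. In the brain the ratio of Ptgs2 to Ptgs1 was 2.01, 1.18 and 0.549 in libraries 1, 2 and 3, so Ptgs2 exceeded Ptgs1 in 2 of the 3 pools and not in the other. The brain ratios did not overlap with those of blood, but 3 libraries against 3 cannot give an exact two-sided permutation p below 0.1, and no test was made of the ratios.

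Of the members that act on prostaglandin H2, the prostaglandin D synthase gene Hpgds moved and the prostaglandin E synthase gene Ptges did not pass the test. Hpgds had 3, 3 and 5 counts in sham blood, 1, 11 and 0 in stroke blood, and 913, 1191 and 1941 in stroke brain. Every blood library was thus at or near the level of a few reads, and every brain library was at 44.5 CPM or more. The log2 fold change was 8.16 against stroke blood (SE 0.67, adjusted p = 5.40e-05, edgeR) and 8.28 against sham blood (SE 0.42, adjusted p = 0.000141, edgeR). With so few blood counts, its size depended on 1 library and was 10.79 without stroke blood 2 (adjusted p = 0.000283, edgeR). The ratio of pooled counts gave 286.5-fold, with a 95% interval of 163.8 to 554.9 for counting error only.

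Ptges, often paired with COX-2 in inflamed tissue, stayed low wherever it was measured. It had 25, 38 and 60 counts in sham blood, 62, 64 and 25 in stroke blood, and 23, 53 and 44 in stroke brain. The 3 groups overlapped, and the log2 fold change between stroke brain and stroke blood was -0.53 (SE 0.50, adjusted p = 0.455, edgeR). Hence the brain libraries with 1707 to 2186 Ptgs2 counts held at most 53 counts of Ptges. The other prostaglandin E synthase genes, Ptges2 and Ptges3, are not members. Their means in the brain were 28.6 and 151.2 CPM, against 1.75 CPM for Ptges, and neither was called against blood.

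Hpgd, which inactivates PGE2 and related prostaglandins, was the second most abundant member per kilobase in all 3 groups. Counts were 6614, 4105 and 1128 in sham blood, 4957, 8049 and 2312 in stroke blood, and 2343, 2989 and 4236 in stroke brain. Blood libraries, of 1 mouse each, were widely spread, with a 5.27-fold range in sham blood. The brain libraries, each a pool of 5 mice, spanned 1.62-fold and lay within the range of sham blood. The log2 fold change against stroke blood was -0.85 (SE 0.34, adjusted p = 0.0897, edgeR) and was not called. It depended on stroke blood 3, the lowest of that group, and without this library it was -1.18 (adjusted p = 0.0179, edgeR). Relative to Ptgs2, Hpgd was 419.4- to 1460-fold higher per kilobase in the stroke blood libraries and 315.8- to 3724-fold higher in sham blood. Ptgs2 had only 12 to 15 counts in the stroke blood libraries and 3 to 57 in sham blood, so the size of these ratios is imprecise. In the brain libraries it was 2.9-, 3.8- and 6.8-fold higher, so the breakdown enzyme remained the more abundant transcript in each.

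**Figure D2:**
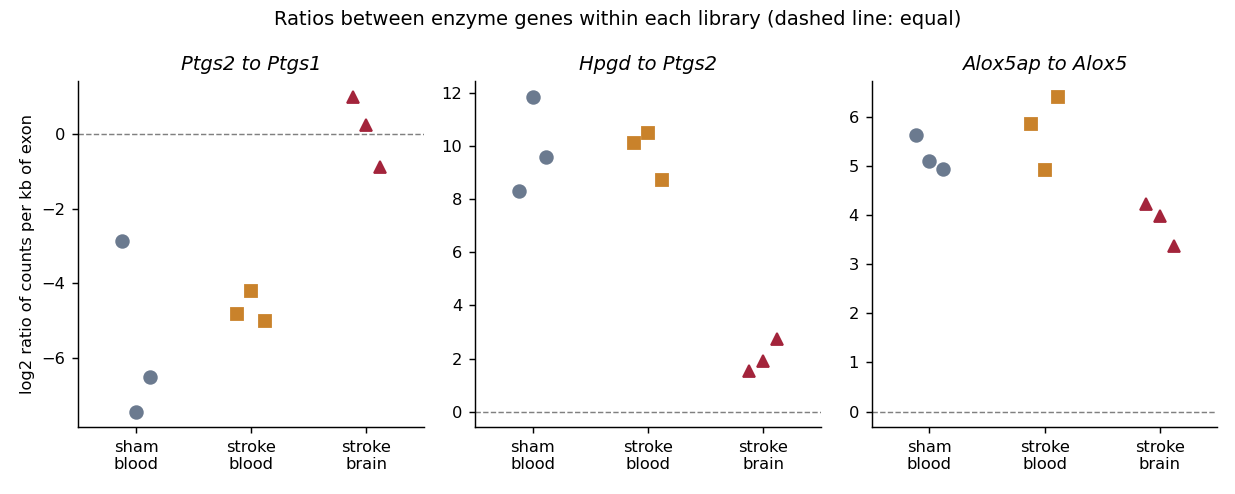
log2 ratios of counts per kilobase of exon (vertical axes) between enzyme genes within each library of sham blood, stroke blood and stroke brain. Ptgs2 to Ptgs1 lies between -7.44 and -2.87 in blood and between -0.87 and 1.01 in the brain. Hpgd to Ptgs2 falls to 1.54 to 2.76 in the brain, and Alox5ap to Alox5 lies lower in the brain than in blood. The blood ratios with Ptgs2 rest on 3 to 57 Ptgs2 counts per library.

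In the 5-lipoxygenase branch, the activating protein and the enzyme differed. Alox5ap, whose product FLAP presents arachidonic acid to 5-lipoxygenase, had 9466, 8394 and 8591 counts in sham blood, 11337, 10305 and 10934 in stroke blood, and 5291, 5771 and 5201 in stroke brain. It was the most abundant member in all 3 groups, ranking 177, 154 and 299 per kilobase among 25369 genes. All brain libraries lay below all blood libraries, and Alox5ap fell by 1.21 on the log2 scale against stroke blood (SE 0.15, adjusted p = 0.000541, edgeR). Against sham blood the log2 fold change was -0.89 (SE 0.14, adjusted p = 0.00548, edgeR), short of the fold threshold. Of the 8 monocyte/macrophage markers, 6 lay wholly below stroke blood in the same libraries (Lyz2 at a mean of 38100 against 97840 CPM). Cd68 lay wholly above it (1302 to 1665 against 886.3 to 1219 CPM), and Csf1r overlapped. The part of such cells in the Alox5ap level was not tested. An antisense gene, Gm19719, shares exon bases with Alox5ap.

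Alox5 itself had 552, 713 and 808 counts in sham blood, 566, 987 and 374 in stroke blood, and 822, 1065 and 1466 in stroke brain. The stroke brain and stroke blood libraries overlapped, and the log2 fold change was 0.62 (SE 0.30, adjusted p = 0.149, edgeR). Per kilobase, Alox5ap exceeded Alox5 by 30.2- to 84.5-fold in the blood libraries and by 10.3-, 15.7- and 18.6-fold in the brain libraries. The brain ratios lay below all 6 blood ratios.

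The genes of the enzymes that share leukotriene A4 lay above blood in every brain library, and only Ltc4s was called. Lta4h had 1841, 2309 and 2167 counts in sham blood, 1952, 1742 and 1018 in stroke blood, and 2995, 3649 and 3315 in stroke brain. The brain libraries were nearly equal, within 1.05-fold, and all lay above blood. The log2 fold change against stroke blood was 0.89 (SE 0.20, adjusted p = 0.00821, edgeR), which passed the p threshold and not the fold threshold. Without stroke blood 1 it was 1.04 (adjusted p = 0.0112, edgeR).

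Ltc4s had 1, 5 and 1 counts in sham blood, 0, 2 and 20 in stroke blood, and 50, 96 and 178 in stroke brain. Brain and blood did not overlap, although stroke blood 3 held most of the blood reads. The log2 fold change was 3.55 against stroke blood (SE 1.06, adjusted p = 0.0311, edgeR) and 5.28 against sham blood (SE 0.75, adjusted p = 0.00417, edgeR). The call against stroke blood was lost in 4 of 6 fits that left out 1 library, namely without stroke blood 1, stroke blood 2, stroke brain 2 or stroke brain 3, where the adjusted p was 0.0560 to 0.109 (edgeR). Without stroke blood 3 the log2 fold change was 6.43 (adjusted p = 0.00622, edgeR). The call against sham blood held in 6 of 6 such fits. Per kilobase, Ltc4s was at 10.1%, 15.8% and 32.3% of the level of Lta4h in the brain libraries and at 11.8% or less in blood. An antisense gene, Gm26542, shares exon bases with Ltc4s.

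Alox15 varied widely between blood libraries. It had 303, 772 and 1773 counts in sham blood, 27, 1201 and 227 in stroke blood, and 2291, 3234 and 2732 in stroke brain. The stroke blood libraries spanned a 41.4-fold range and the sham libraries a 6.51-fold range, but the brain libraries only 1.20-fold, and all 3 brain libraries lay above all 6 of blood. The log2 fold change of 2.35 against stroke blood was not called (SE 0.89, adjusted p = 0.0723, edgeR). It was called without stroke blood 1 (1.78, adjusted p = 0.0451, edgeR) and without stroke blood 2 (4.05, adjusted p = 0.0115, edgeR). Against sham blood it was 1.29 (SE 0.57, adjusted p = 0.151, edgeR), and it was 2.24 without sham blood 3 (adjusted p = 0.0175, edgeR).

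**Figure D3:**
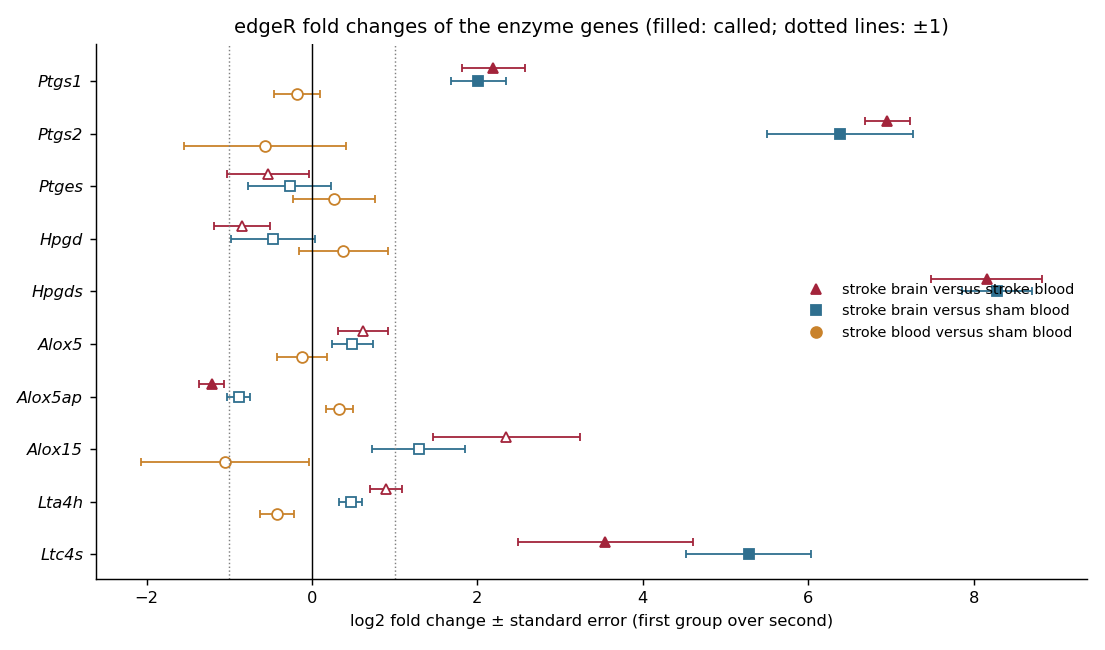
log2 fold changes with standard errors (horizontal axis) of the enzyme genes in the 3 comparisons, with filled symbols for called genes and dotted lines at 1 and -1. Ptgs1, Ptgs2, Hpgds and Ltc4s lie beyond 1 in both comparisons of brain with blood, and no gene is called between stroke and sham blood, where Hpgds and Ltc4s had too few counts to be tested.

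Per kilobase of exon, Alox5ap and Hpgd led in all 3 groups, and the order of the other members varied. In stroke blood the mean level fell from Alox5ap (403.8 ± 58.5 normalized CPM per kilobase, SD, n = 3) and Hpgd (153.0 ± 72.3) to Lta4h (13.3 ± 3.2). Alox15, Alox5 and Ptgs1 followed between 9.76 and 4.32, and Ptges, Ltc4s, Ptgs2 and Hpgds were all below 1. In sham blood Alox15 (20.3 ± 17.6) stood above Lta4h (17.4 ± 2.3), with overlapping libraries in both blood groups, and the same 4 genes were below 1. In the brain Alox5ap (169.9 ± 10.98) and Hpgd (83.7 ± 22.7) again led, followed by Alox15 (49.6 ± 4.7), Lta4h (24.1 ± 0.6), Ptgs2 (19.6 ± 3.5) and Ptgs1 (19.2 ± 9.3). Alox5 (12.02 ± 3.10), Hpgds (9.26 ± 3.40) and Ltc4s (4.66 ± 2.70) came next, and Ptges was last at 0.444 ± 0.142. Among brain neighbours, the libraries of Ptgs2 and Ptgs1 overlapped, as did those of Ptgs1 and Alox5, of Alox5 and Hpgds, and of Hpgds and Ltc4s.

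Transcripts of other cells moved with several of these genes. Within the brain, Ptgs1, Hpgds and Ltc4s were lowest in library 1 and highest in library 3. So were Hpgd and Alox5, which were not called between brain and blood. The summed microglia markers had the same order (926.7, 1341 and 2924 CPM), while Ptgs2 and Alox5ap ran the other way. That order was not particular to microglia markers. It was shared by the sums of the monocyte/macrophage (42760, 46810 and 49170 CPM), platelet (36.5, 58.3 and 79.9 CPM), lymphocyte and red cell markers. P2ry12 had 138 to 684 counts in the blood libraries and Tmem119 40 to 173, and Sall1, a defining microglial factor, had 0 counts in all 6 blood libraries and 137 to 472 in the brain. The summed mast cell and basophil markers were 14.2 to 63.1 CPM in the brain and 6.17 to 18.8 CPM in blood, with all 8 genes detected in the brain. Most of that sum was Cma1, and the mast cell gene Cpa3, at 7 counts or fewer in blood, had 4 to 161 counts in the brain. Of the 8 genes, 1 had enough counts to be tested against stroke blood, and it was called higher. Stroke brain 1, at 14.2 CPM, lay within the blood range of the sum. Across stroke blood libraries 1, 2 and 3 the sum fell (18.8, 8.63 and 7.54 CPM) while Ltc4s rose. Markers of other myeloid cells were also called against stroke blood: 5 of 6 dendritic cell markers higher (sum 624.1 to 802.8 CPM in the brain, 98.6 to 224.2 in stroke blood), 5 of 8 neutrophil markers tested higher and 1 lower (sum 1045 to 1653 and 679.7 to 1135), and 4 of 5 border macrophage markers tested higher and 1 lower. The summed border macrophage markers, most of them F13a1, were 975.8 to 1203 CPM in the brain and 1573 to 2717 in stroke blood. Against sham blood, 2 of 9 neutrophil markers tested were called higher and 1 lower, and 2 of 6 dendritic cell markers higher. The sham blood neutrophil sums were 1039 to 3369 CPM, the highest in sham blood 3. The part of these cells in the levels of the enzyme genes was not tested.

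The summed eosinophil, neutrophil and platelet markers each stood in the same library order as Alox15 within each blood group. The neutrophil sum was 679.7 and 1039 CPM in stroke blood 1 and sham blood 1. It was 1135 and 3369 CPM in stroke blood 2 and sham blood 3. The eosinophil sum was lowest in stroke blood 1 (1.89 CPM) and sham blood 1 (19.8 CPM), the libraries with the lowest Alox15 of their groups. It was highest in stroke blood 2 (56.7 CPM) and sham blood 3 (58.7 CPM), those with the highest. In the brain the sum was 93.1 to 185.9 CPM, above all blood libraries, with 5 of 5 markers detected and 3 of 5 upregulated against stroke blood. Within the brain the library with the highest sum, stroke brain 1, had the lowest Alox15. The granule gene Epx was at 0 counts in sham blood and at most 10 in stroke blood. Ccr3, the most abundant eosinophil marker in blood, was at 12.2 to 47.5 CPM in the brain, within the range of the blood libraries. The part of eosinophils or of the other cells in the Alox15 level was not tested.

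**Figure D4:**
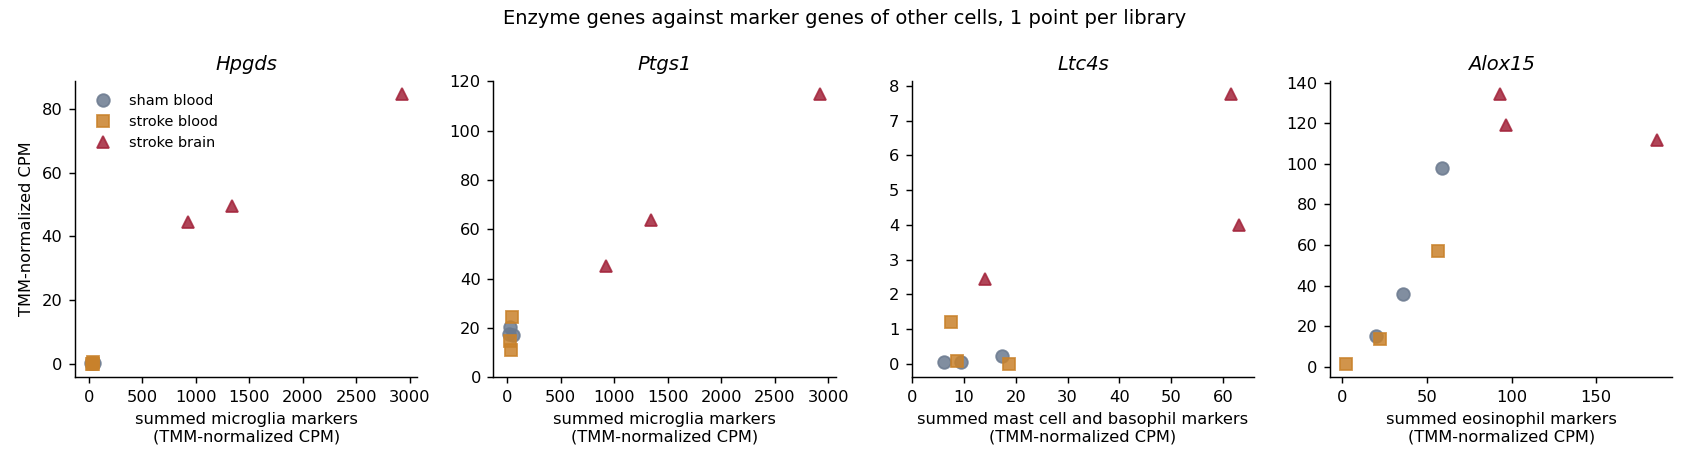
TMM-normalized CPM of Hpgds, Ptgs1, Ltc4s and Alox15 (vertical axes) against the summed CPM of microglia, mast cell and basophil, or eosinophil markers (horizontal axes), 1 point per library. Brain libraries lie apart from blood for both measures in the Hpgds and Ptgs1 panels. In the Alox15 panel blood libraries range from 1.38 to 98.1 CPM of Alox15, with the same order as the eosinophil sum within each blood group. The summed neutrophil and platelet markers, not drawn, had that order too. Within the brain, the monocyte/macrophage, platelet, lymphocyte and red cell sums, also not drawn, stood in the order of the microglia sum.

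None of the members was called between stroke blood and sham blood. Of the 10, 8 were tested, since Hpgds and Ltc4s fell below the low-count filter, and 0 of 8 were called with edgeR, 0 with DESeq2 and 0 at an unadjusted p under 0.05, a value reached by 1581 of the 12664 genes tested. In this comparison, 0.0079% of all genes tested were called. Only Alox5ap did not overlap, being higher in all 3 stroke libraries, with a log2 fold change of 0.33 (SE 0.16, adjusted p = 0.439, edgeR). The share of all genes with no overlap was 18.1%. The other log2 fold changes lay between -1.05 for Alox15 (SE 1.01, adjusted p = 0.674, edgeR) and 0.38 for Hpgd (SE 0.54, adjusted p = 0.784, edgeR). Ptgs2 was at -0.57 (SE 0.98, adjusted p = 0.825, edgeR) and, without sham blood 1, at 1.98 (adjusted p = 0.277, edgeR), so its direction rested on that library.

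Stroke brain against sham blood called the same 4 genes higher, Ptgs1, Ptgs2, Hpgds and Ltc4s, and none lower. This was 4 of 10 members, against 9.75% of 13020 genes called higher and 3.67% called lower. The brain libraries are shared with the comparison against stroke blood, so the counts are not independent. The median log2 fold change was 0.89 for the members and 0.01 for all genes, and 7 of 10 members did not overlap between the groups, against 41.2% of all genes.

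The wider eicosanoid pathway was followed in a list of 47 other genes, of which 28 had enough counts to be tested between stroke brain and stroke blood. Of these, 5 were called higher (Pla2g12a, Ptgds, Alox12e, Ggt5 and Ptger4) and 4 lower (Alox12, Ptger2, Ptgir and Fpr2), against the same 13.1% and 7.86% of all genes. The median log2 fold change of the 28 was 0.34. Between stroke brain and sham blood, 29 were tested, 4 were called higher (Ptgds, Tbxas1, Ptger3 and Ptger4) and 5 lower (Alox12, Ptgr1, Ptger2, Ptgir and Fpr2), against 9.75% and 3.67% of all genes. Of 26 pathway genes tested between stroke and sham blood, 0 were called by edgeR, with 3 at an unadjusted p under 0.05, against 1581 of all 12664 genes.

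Upstream of the cyclooxygenases, 1 of 5 phospholipase genes tested was called. Pla2g12a, a secreted phospholipase A2, had 37 to 60 counts in stroke blood and 222 to 293 in stroke brain (log2 fold change 2.18, SE 0.33, adjusted p = 0.0014, edgeR), whereas in sham blood it ranged from 15 to 148. Pla2g4a, the cytosolic phospholipase A2 that supplies most arachidonic acid to these enzymes, was at 32.8 ± 8.2 CPM in stroke blood and 37.8 ± 11.4 CPM in the brain (SD, n = 3), with overlapping libraries.

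Among the 4 other prostanoid synthase genes tested, only Ptgds was called higher against stroke blood. Ptgds, the lipocalin-type prostaglandin D synthase of meninges and choroid plexus, had 0 counts in all 6 blood libraries and 57 to 190 in the brain, at least 31.9-fold higher than stroke blood against a floor of 3 counts per library. Ttr, a choroid plexus gene, was likewise at 0 counts in blood and 334 to 1760 in the brain, and the part of such cells was not tested. Tbxas1, thromboxane A synthase, was called only against sham blood (log2 fold change 1.5, SE 0.16, adjusted p = 0.00132, edgeR), and against stroke blood it was 0.73 (SE 0.21, adjusted p = 0.0253, edgeR).

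Alox12, the lipoxygenase of platelets, was nearly absent from the brain libraries. It had 502 to 997 counts in stroke blood, 68 to 1481 in sham blood, and 1, 0 and 0 in the stroke brain libraries. Pooled counts were 2812-fold lower in the brain than in stroke blood, with a 95% interval for counting error of 504.3 to 111100. Of 11 platelet markers, 10 were also downregulated against stroke blood, and Pf4 was not called. The sums were 36.5 to 79.9 CPM in the brain, most of it Pf4 (mean 53.0 CPM), and 383.8 to 464.2 CPM in stroke blood. The part of platelet transcripts in the Alox12 level was not tested. Alox12e, an epidermal-type lipoxygenase, was called higher at 3.39 (SE 1.02, adjusted p = 0.0327, edgeR), a call that was lost without stroke blood 1, stroke blood 3 or stroke brain 3.

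Receptor genes moved in both directions. Ptger4, which encodes the PGE2 receptor EP4, rose from 371 to 889 counts in stroke blood to 2009 to 2696 in the brain (log2 fold change 1.51, SE 0.26, adjusted p = 0.00288, edgeR). The other cAMP-raising PGE2 receptor, EP2 (Ptger2), fell by 1.18 (SE 0.30, adjusted p = 0.0168, edgeR), a call lost without stroke brain 1 or stroke brain 3. The prostacyclin receptor gene Ptgir fell by 1.74 (SE 0.29, adjusted p = 0.00225, edgeR). Fpr2, a receptor for formyl peptides and lipoxin A4, fell by 1.92 (SE 0.21, adjusted p = 0.00029, edgeR), with 581 to 647 counts in stroke blood and 181 to 197 in the brain, and it shares exon bases with Fpr3. Ptger4 (with Ttc33), Ptger2 and Tbxas1 also share exon bases with genes on the opposite strand. Ptger3 was called only against sham blood (2.87, SE 0.60, adjusted p = 0.0159, edgeR), in 2 of 6 fits that left out 1 library. The LTB4 receptor gene Ltb4r1 was at -0.94 (SE 0.15, adjusted p = 0.0020, edgeR), short of the fold threshold, and the cysteinyl leukotriene receptor gene Cysltr1 at 0.35 (SE 0.25, adjusted p = 0.306, edgeR).

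Of 7 genes of eicosanoid breakdown and transport tested, Ggt5, which trims LTC4 to LTD4, was called higher against stroke blood at 1.14 (SE 0.36, adjusted p = 0.0401, edgeR). This call held in only 2 of 6 fits that left out 1 library, and was lost without stroke blood 1, stroke blood 2, stroke brain 2 or stroke brain 3. Ptgr1, which inactivates LTB4 and reduces prostaglandins, was called lower against sham blood at -1.09 (SE 0.26, adjusted p = 0.0251, edgeR), also in 2 of 6 such fits, and was at -0.80 against stroke blood (SE 0.21, adjusted p = 0.0205, edgeR).

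**Figure D5:**
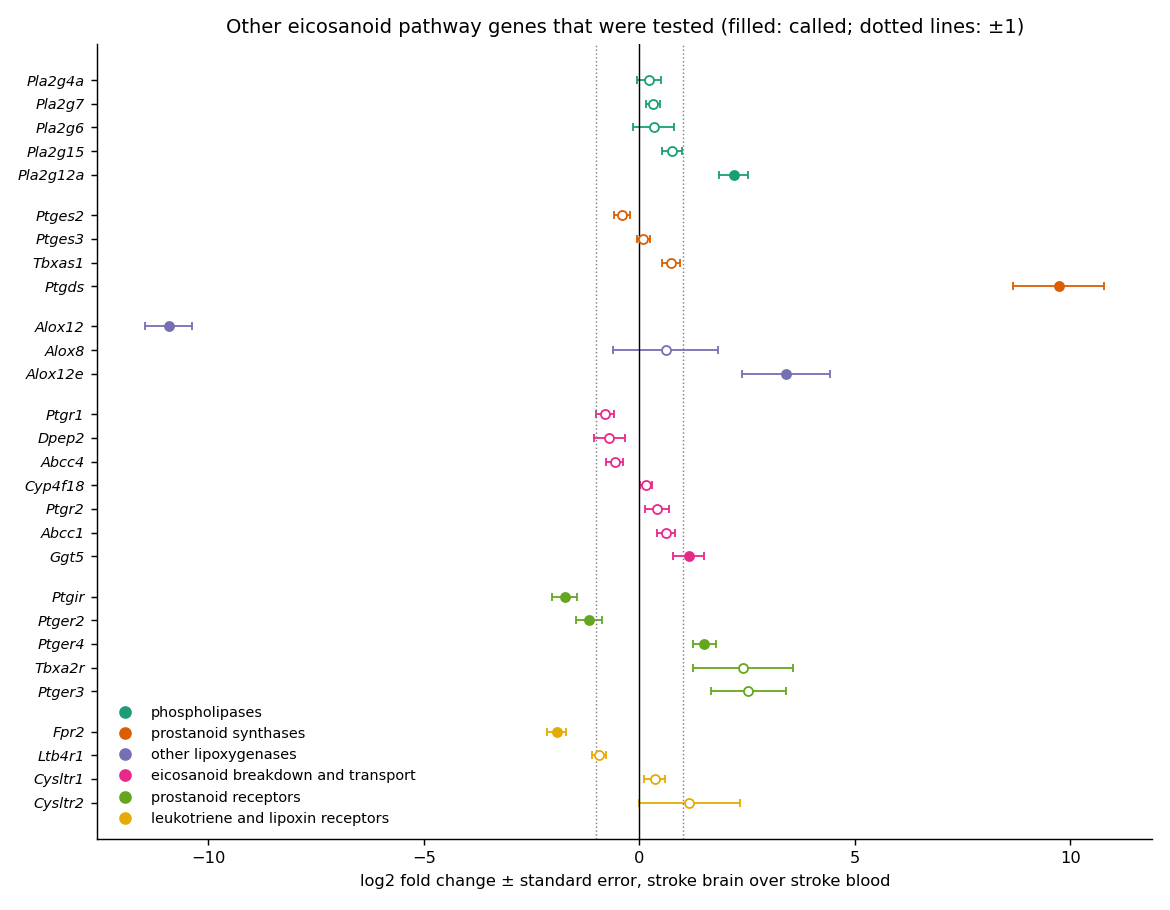
log2 fold changes with standard errors between stroke brain and stroke blood (horizontal axis) of the 28 other pathway genes tested, grouped by role, with filled points for called genes. Ptgds and Alox12, whose bars rest on groups at or near 0 counts, lie at the 2 ends, and receptor genes fall on both sides of 0.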

How the data were processed

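Raw counts per gene and library were deposited by the authors, who aligned reads to GRCm38 with HISAT2 and counted them with HTSeq. Versions and the strand setting are not given in the sources used here. SMART-Seq HT cDNA and Nextera XT libraries were sequenced as paired ends. The 10 members and all gene lists were chosen with earlier results of these data known.

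Total counts were 18475118 to 22623578 per library. edgeR 4.0.16 (R 4.3.3) was run on the counts of each pair of groups, with TMM normalization, filterByExpr, glmQLFit, glmQLFTest and Benjamini-Hochberg adjustment over all genes tested. Genes beyond a log2 fold change of 1 with an adjusted p below 0.05 were called, and standard errors came from the F statistic. The fit was tested on simulated data. Normalized CPM used TMM factors over all 9 libraries (0.902 to 1.095), and levels per kilobase used GENCODE M21 union exon lengths. A floor of 3 counts per library and exact 95% intervals of pooled counts cover counting error only. Promoters were matched to RefSeq by symbol (8 of 10 members). All members were named, and of the 47 pathway genes, those called in any comparison and a few others. Alternatives were DESeq2 1.42.0, RLE, library size only, no filter, all libraries in one fit, a replicate block, other thresholds and leaving out each library. Same-numbered libraries did not deviate together (correlations of -0.066 to 0.065), so the numbers were not taken as pairs. Libraries of a group differed by far more than counting error (chi-square over its degrees of freedom of 23.9 or more).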

Additional observations from a re-analysis of the deposited data

How the results depend on the processing

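The number of members called kept within 1.5 times its main value under every alternative in all 3 comparisons, at 4 to 6 of 10 between stroke brain and stroke blood. Ptgs1, Ptgs2, Hpgds and Alox5ap were called there in 6 of 6 fits that left out 1 library and in 6 of 6 other fits. Ltc4s was called in 2 of 6 and 6 of 6. Alox15 was also called with no filter on low counts (2.35, adjusted p = 0.0133, edgeR), and, against sham blood, with DESeq2 (1.29, adjusted p = 0.0452). Lta4h was also called with library size only (1.05, adjusted p = 0.0048, edgeR), a scaling that moved the median of all genes from 0.06 to 0.22. With the replicate number as a block, Alox15 was added against stroke blood (3.35, adjusted p = 0.0148, edgeR), and the Ptgs2 change between stroke and sham blood was 0.52 rather than -0.57, still not called. The block left 2634, 1 and 1571 genes called in the 3 comparisons, and the shared numbers are no evidence of pairing.

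Without a fold threshold, 14 of 28 pathway genes passed between brain and stroke blood rather than 9, and 4035 of all 13189 genes rather than 2771. At an adjusted p below 0.01, 1793 of all genes were called there, 0 between stroke and sham blood, and 792 between brain and sham blood. Between stroke and sham blood, 1 gene was called in the main fit, 127 with DESeq2, 160 with no filter and 0 to 16 when 1 library was left out. Between brain and sham blood, leaving out 1 library gave 1146 to 1883 genes, against 1748. Leaving out 1 library also turned the sign of uncalled changes between stroke and sham blood: Ptgs1 ranged from -0.55 to 0.0035, Ptgs2 from -1.09 to 1.98, Ptges from -0.0042 to 0.73, Hpgd from -0.060 to 1.00 and Alox5 from -0.52 to 0.088. Between brain and sham blood, Ptges ranged from -0.54 to 0.20 and Hpgd from -0.90 to 0.15. For Hpgds and Ltc4s, the blood counts of 0 to 20 limit the precision of the fold change.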
